A study of Mus musculus with 23 samples.

Results

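The genes described here encode the nuclear subunits of the mitochondrial respiratory chain, together with factors that assemble its first complex. They were taken as all genes whose array symbol starts with Nduf or Uqcr, is Sdha, Sdhb, Sdhc or Sdhd, or starts with Cox4, Cox5, Cox6, Cox7 or Cox8. This rule found 64 of the 12106 genes that the array names, and each gene was read from the probe set with the highest mean over the 23 arrays. Of the 64 genes, 6 encode core subunits of complex I, 25 its accessory subunits and 4 its assembly factors. A further 4 belong to complex II, 8 to complex III, 10 are grouped as general subunits of complex IV and 6 are tissue isoforms of complex IV. Cox7a2l, which takes part in assembling supercomplexes, was counted among the 10. The last one, Ndufa4, was named for complex I but is assigned today to complex IV, and it was kept apart.

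Complex I oxidises NADH and complex II oxidises succinate, and both pass electrons to ubiquinone. Complex III hands them on to cytochrome c, and complex IV, cytochrome c oxidase, gives them to oxygen. Complexes I, III and IV pump protons as they do so, and ATP synthase uses the resulting gradient. Several small subunits of complex IV exist as a general form and as a form found in muscle, lung or testis. In skin, keratinocytes can also draw on glycolysis, and the panniculus carnosus, a sheet of striated muscle, lies under the dermis.

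Whole back skin of adult females of CD-1, an outbred mouse stock, was profiled on Affymetrix MOE430A arrays. The shaved back of every mouse received DMSO, the solvent, or 4 mg of AG825 dissolved in it, 2 h before irradiation, AG825 being a tyrphostin that inhibits the kinase of the receptor Erbb2. Mice were then irradiated with ultraviolet light (UV) at 10 kJ/m2 or sham-irradiated. The title of the study names the role of Erbb2 in inflammation and proliferation after UV as its question. The 6 groups were DMSO sham (4 arrays), DMSO 6 h after UV (4), DMSO 24 h after UV (4), AG825 sham (4), AG825 6 h after UV (4) and AG825 24 h after UV (3). Both sham groups were taken at 6 h, so a comparison of 24 h with sham is not matched for time. Since every group had been painted with DMSO, no group shows untreated skin. Nothing in the labels says that replicates came from separate mice, and p-values therefore reflect only the variation among these arrays, which may be technical.

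Values are log2 expression as deposited, and differences are log2 differences between group means ± their standard error (SE). A gene was said to rise or fall when its adjusted p was under 0.05 in a limma model fitted over all 19645 probe sets, with Benjamini-Hochberg adjustment over all of them. Adjusted p-values below come from that model. Between 62.3% and 71.4% of probe sets were called present on an array, lowest on DMSO 6 h replicate E, AG825 6 h replicate A and DMSO 6 h replicate F. Other parts of the skin changed at the same time. In DMSO skin at 6 h, 16 of 17 hair follicle genes fell (median -3.61), 10 of 11 leukocyte genes rose (median 2.14) and 8 of 19 skeletal muscle genes rose (median 0.80). Defining muscle markers were well detected in all groups: 17 of the 19 were called present on all 23 arrays. The muscle score of an array, the mean centred log2 value of the 19 genes, ran from -0.52 to -0.04 in DMSO sham skin and from 0.19 to 0.67 at 6 h. The part of these shifts in the values below was not tested, except where the value with a score as a covariate is given. In bulk skin, fewer cells of a type and less RNA per cell cannot be told apart.

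Most of the respiratory chain genes were well expressed, and most moved little. Of the 64, 57 were called present on all 23 arrays and 7 on some of them. The least often detected were Ndufb1, a small accessory subunit, and Cox8c, the testis form of subunit VIII, each present on 11 arrays. The spread of a gene between its lowest and highest group mean had a median of 0.30 over the 64 genes, against 0.37 over all genes. It was under 0.50 for 58 genes and over 1 for 3, the muscle isoforms Cox6a2, Cox7a1 and Cox8b. The smallest spread, 0.05, was that of Cox7c, which was present on 17 arrays and low in level (group means 4.67 to 4.72). Ndufa12 was low as well (4.46 to 4.88).

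In DMSO skin 6 h after UV, 6 respiratory chain genes passed the test, 4 higher and 2 lower. Ndufv1 and Ndufv2 of complex I fell, and the assembly factor Ndufaf4 and the complex IV isoforms Cox6a2, Cox7a1 and Cox8b rose. Over all genes 21.9% passed, 9.34% higher and 12.5% lower, so 6 of 64 is below the background share. The median difference of the 64 genes was -0.01, beside 0.01 over all genes and -0.08 over the 6155 genes present on all arrays. This median changed sign with the expression summary: it was 0.11 with dChip signal. Percent present ran from 62.3% to 69.2% in DMSO 6 h skin and from 66.0% to 71.2% in DMSO sham skin. Without the 3 arrays of lowest percent present, 2 of them DMSO 6 h arrays, no respiratory chain gene passed in limma, and the genes past the threshold over all 12106 went from 2647 to 1420. With the replicate letter as a block 2 of the 6 passed, Cox6a2 and Cox8b, and 1748 of all genes.

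**Figure D1:**
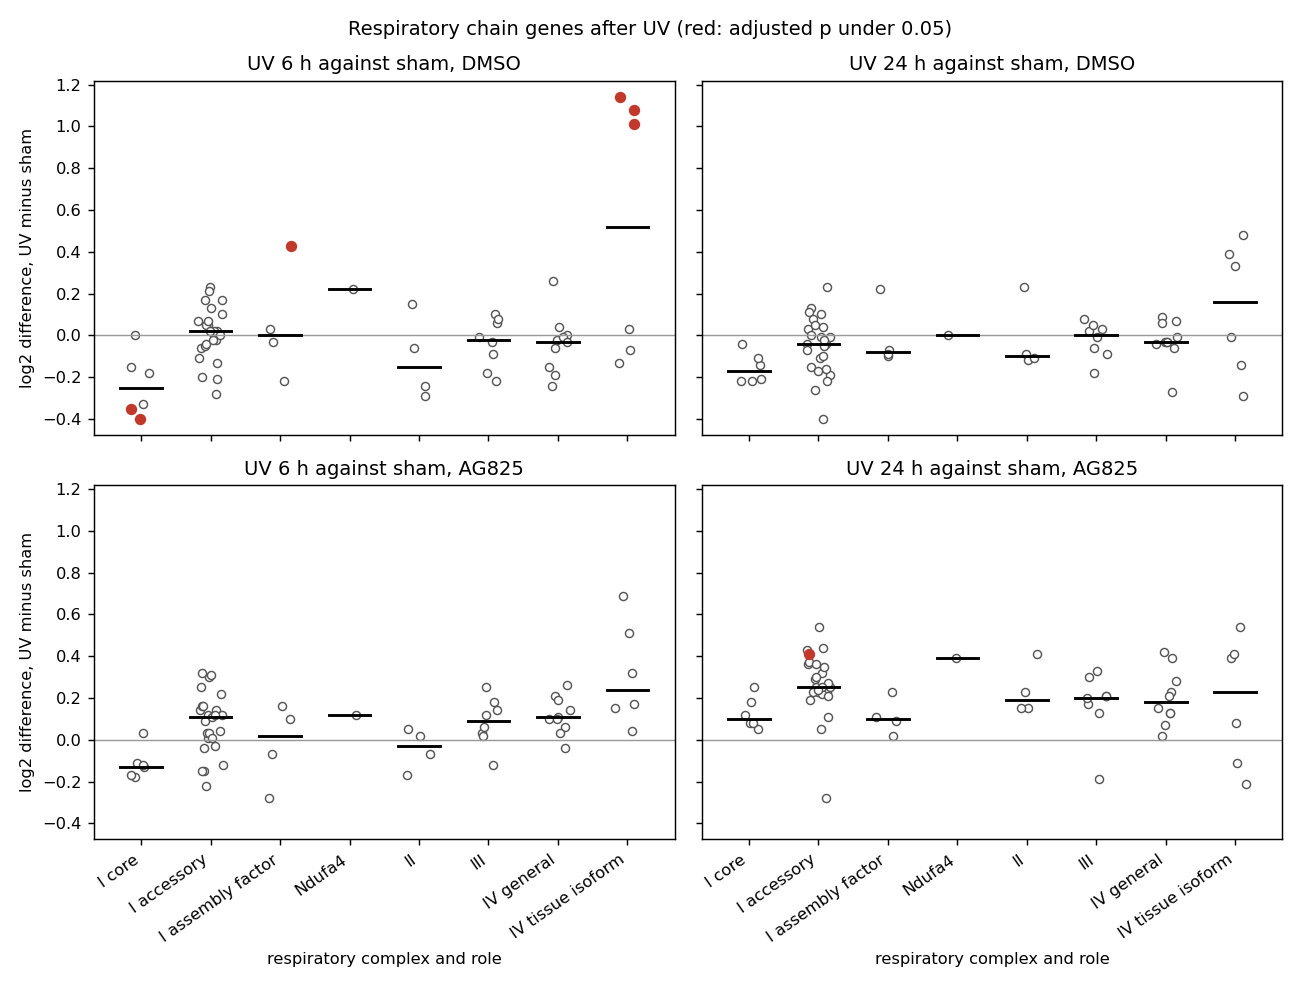
Log2 difference of each respiratory chain gene (1 point per gene) after UV against sham, by complex and role, in DMSO skin (top) and AG825 skin (bottom) at 6 h (left) and 24 h (right). Red points have an adjusted p under 0.05 and black bars are class medians. Of the red points, 6 lie in DMSO skin at 6 h and 1 in AG825 skin at 24 h.

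The core subunits of complex I, which carry the flavin and iron-sulfur clusters that take electrons from NADH to ubiquinone, had the lowest class median in DMSO skin at 6 h, -0.25, and none of the 6 was higher than in sham skin. Higher there were 51.8% of all genes and 40.9% of genes present on all arrays. Ndufv2, which holds an iron-sulfur cluster, measured 11.31, 11.32, 11.31 and 11.20 in DMSO sham replicates A, B, C and D. At 6 h after UV it measured 11.12, 10.83, 10.68 and 10.91 in replicates C, E, F and G. All 4 irradiated arrays lay below all 4 sham arrays, and Ndufv2 fell by 0.40 ± 0.11 (adjusted p = 0.0112). Ndufv1, which binds NADH and the flavin, measured 10.83, 10.80, 10.78 and 10.71 in sham skin and 10.66, 10.44, 10.21 and 10.40 at 6 h. The groups again did not overlap, and Ndufv1 fell by 0.35 ± 0.10 (adjusted p = 0.0176). Each gene has another probe set, for which the difference was -0.28 (adjusted p = 0.344) for Ndufv2 and -0.33 (adjusted p = 0.417) for Ndufv1. Both calls were lost with dChip signal, GCOS signal (which lacks DMSO 6 h replicate G) and without the 3 arrays of lowest percent present. They were also lost with the replicate block, the mean of a gene's probe sets, and percent present or the hair follicle score as a covariate. That of Ndufv1 was lost besides with only the groups compared and without DMSO 6 h replicate F (-0.28, adjusted p = 0.0681).

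The other 4 core subunits did not pass. Ndufs8, an iron-sulfur subunit, measured 11.20, 11.24, 11.05 and 10.89 in sham skin and 10.79, 10.93, 10.66 and 10.66 at 6 h, a difference of -0.33 ± 0.13 (adjusted p = 0.0923). One sham value, that of replicate D, lay within the irradiated range. The difference was -0.18 for Ndufs7 and -0.15 for Ndufs1, both iron-sulfur subunits. Ndufs3 was level, with a group mean of 10.75 in DMSO sham skin and 10.74 in DMSO skin at 6 h. In AG825 skin at 6 h the core class median was -0.13 and no core subunit passed. There Ndufv2 measured 11.08, 11.25, 11.05 and 10.90 in AG825 skin at 6 h (replicates A, B, D and E), against 11.29, 11.14, 11.33 and 11.22 in AG825 sham skin (B, C, D and E). That difference was -0.17 ± 0.11 (adjusted p = 0.456), and no respiratory chain gene passed the test of the drug by UV interaction at 6 h.

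None of the 25 accessory subunits of complex I passed at 6 h in DMSO skin. Their differences ran from -0.28 for Ndufs5 to 0.23 for Ndufa1, with a median of 0.02. Among the 4 assembly factors, which help to build complex I but are not part of the finished enzyme, Ndufaf4 rose by 0.43 ± 0.14 (adjusted p = 0.0336). It measured 9.20, 8.90, 9.01 and 8.57 in sham skin and 9.16, 9.37, 9.61 and 9.25 in replicates C, E, F and G at 6 h. Sham replicate A lay above irradiated replicate C, so the groups overlapped. Its other probe set differed by 0.36 (adjusted p = 0.252), and the call was lost without sham replicate B (0.42, adjusted p = 0.0758) or D (0.31, adjusted p = 0.112) and without DMSO 6 h replicate E (0.42, adjusted p = 0.0736) or F (0.34, adjusted p = 0.113).

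Complexes II and III and the general subunits of complex IV held no gene that passed at 6 h in DMSO skin. In complex II, succinate dehydrogenase, the differences were -0.06 ± 0.14 for the flavoprotein Sdha, -0.24 ± 0.11 for the iron-sulfur subunit Sdhb, -0.29 ± 0.14 for the membrane anchor Sdhc and 0.15 ± 0.13 for the membrane anchor Sdhd. In complex III they were -0.22 ± 0.16 for the core protein Uqcrc1 and 0.10 ± 0.09 for Uqcrfs1, the Rieske iron-sulfur protein. Uqcrc1 spread more at 6 h (11.40, 11.23, 10.49 and 10.89) than in sham skin (11.31, 11.27, 11.02 and 11.29). The second probe set of Uqcr10, a small complex III subunit, rose by 0.30 (adjusted p = 0.0344) but was called present on 1 array, while its main probe set differed by 0.06 (adjusted p = 0.755). In complex IV, Cox4i1, which every tissue uses, measured between 12.22 and 12.32 in sham skin and between 12.24 and 12.29 at 6 h. For the 10 general subunits the median was -0.03, from -0.24 to 0.26. The highest, Cox6c, differed by 0.26 ± 0.11 (adjusted p = 0.111).

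The 3 complex IV isoforms that rose at 6 h in DMSO skin are those known from heart and skeletal muscle. Cox6a2 measured 10.28, 9.58, 9.62 and 9.70 in sham replicates A, B, C and D and 10.82, 11.10, 11.18 and 10.67 at 6 h in replicates C, E, F and G, a rise of 1.14 ± 0.32 (adjusted p = 0.0165). Cox8b, which is also expressed in brown fat, measured 9.42, 8.98, 8.99 and 9.22 in sham skin and 9.79, 10.34, 10.33 and 10.18 at 6 h, a rise of 1.01 ± 0.33 (adjusted p = 0.0393). For both genes every irradiated array lay above every sham array. Cox7a1 measured 7.57, 7.18, 7.12 and 6.48 in sham skin and 7.58, 8.28, 8.87 and 7.94 at 6 h, a rise of 1.08 ± 0.37 (adjusted p = 0.0453), with sham replicate A just below irradiated replicate C. The calls of Cox7a1 and Cox8b were lost when any one of DMSO sham replicates B, C and D or DMSO 6 h replicates E, F and G was left out, where the differences ran from 0.84 to 1.15. That of Cox6a2 was lost without sham replicate B (1.07, adjusted p = 0.0523).

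**Figure D2:**
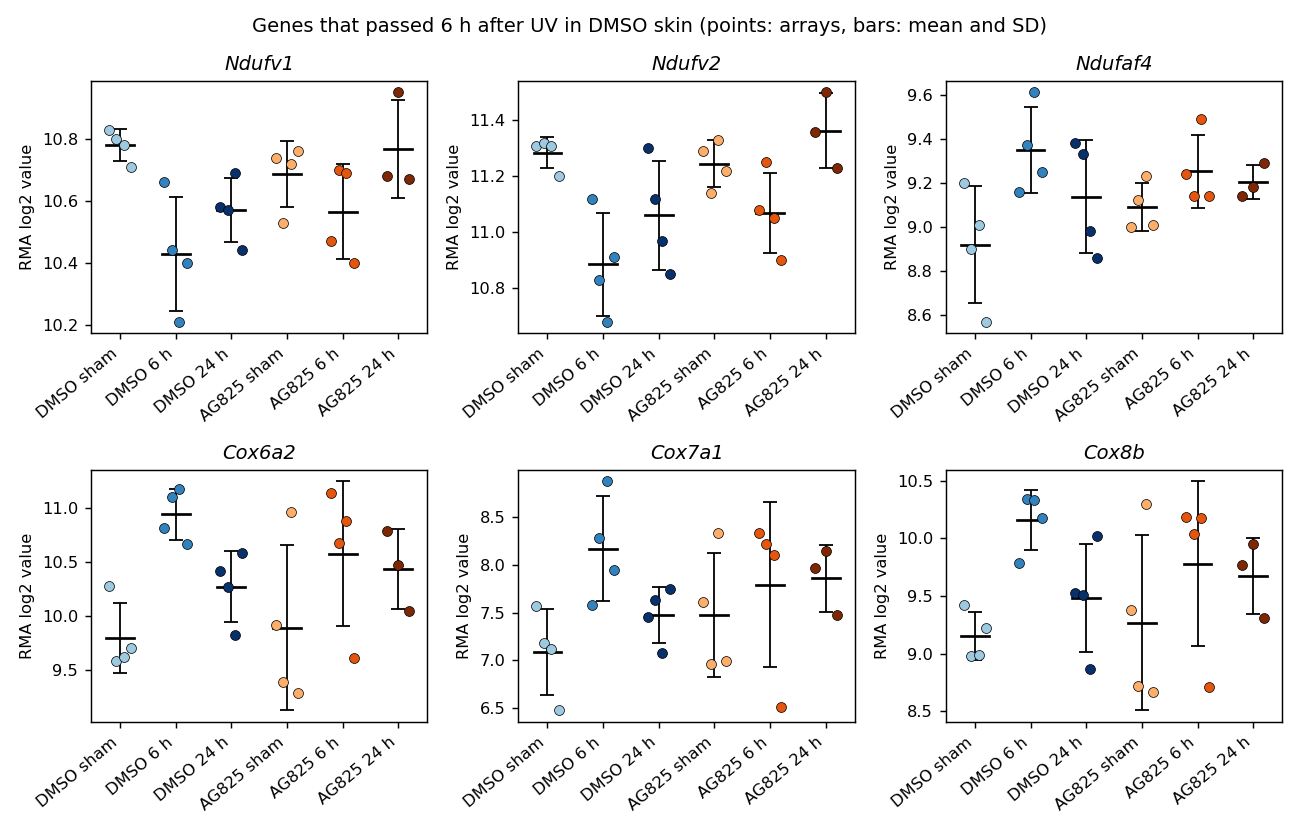
RMA log2 value on each array (points) of the 6 genes that passed 6 h after UV in DMSO skin, by group, with mean and SD. Ndufv1 and Ndufv2 are lower, and Cox6a2 and Cox8b higher, on all 4 DMSO 6 h arrays than on all 4 DMSO sham arrays. AG825 6 h replicate E is the low point for all 3 muscle isoforms in its group.

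None of the general partners of these isoforms passed in the same skin. Cox6a1 differed by -0.15 ± 0.08 (adjusted p = 0.23), Cox7a2 by -0.03 ± 0.11 (adjusted p = 0.89) and Cox8a by -0.19 ± 0.14 (adjusted p = 0.36). Cox8a was low on DMSO 6 h replicate F, at 11.45, with the others between 12.04 and 12.22. Of the remaining tissue isoforms, Cox4i2, the lung form of subunit IV, differed by -0.07 ± 0.14 (adjusted p = 0.755), and Cox6b2 and Cox8c, known from testis, did not pass.

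Array by array, the 3 muscle isoforms followed the mean centred level of the 19 skeletal muscle genes, a list that holds none of them. Over the 23 arrays, Cox6a2 correlated with the muscle score at Pearson's r = 0.953 and Spearman's rho = 0.943, Cox8b at r = 0.93 and rho = 0.916, and Cox7a1 at r = 0.861 and rho = 0.874. Each had a permutation p of 1e-05 by both measures, the smallest that 100000 resamples can give, and 2e-05 after Benjamini-Hochberg adjustment over the 6 relations computed. The permutation shuffled the 23 arrays across groups, so these p-values also take in differences between the groups. Without the 2 arrays farthest from the median muscle score, r was 0.938, 0.908 and 0.847. Taken on deviations from the group means, r was 0.926, 0.89 and 0.803, for which no p-value was computed. The corresponding r was -0.047 for Cox6a1 (rho = 0.002, permutation p = 0.83 and 0.994), 0.339 for Cox7a2 (rho = 0.378, permutation p = 0.115 and 0.076) and 0.097 for Cox8a (rho = 0.223, permutation p = 0.679 and 0.303). Adjusted, the p-values of r were 0.83, 0.172 and 0.814 and those of rho 0.994, 0.114 and 0.364. For Cox7a2 r fell to 0.215 without the 2 farthest arrays, and for Cox6a1 and Cox8a it was then -0.114 and 0.005. These relations were chosen after the muscle genes had been seen to rise. The arrays of a value and of the score are the same, so both share any error of an array.

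**Figure D3:**
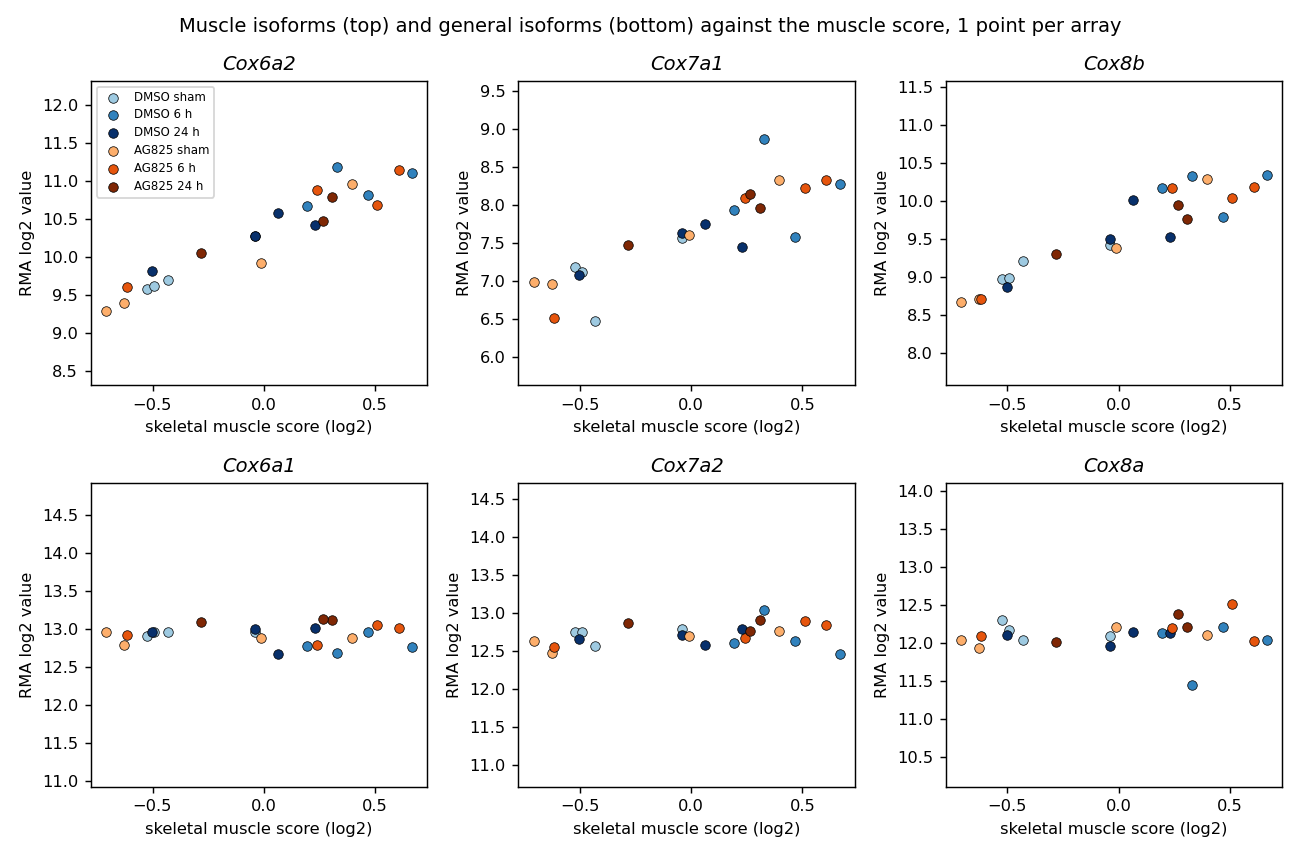
RMA log2 value of 3 muscle isoforms (top) and their general partners (bottom) against the skeletal muscle score of the same array, 1 point per array, coloured by group. Each vertical axis spans 4 log2 units around the gene's mean. Cox6a2 (r = 0.953), Cox8b (r = 0.93) and Cox7a1 (r = 0.861) climb with the score, and Cox6a1 (r = -0.047), Cox7a2 (r = 0.339) and Cox8a (r = 0.097) show flatter clouds.

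With the muscle score as a covariate, the DMSO 6 h difference was 0.21 for Cox6a2 (adjusted p = 0.454), 0.15 for Cox7a1 (adjusted p = 0.762) and 0.08 for Cox8b (adjusted p = 0.831). The same covariate left Ndufv2 at -0.55 (adjusted p = 0.00508) and Ndufv1 at -0.43 (adjusted p = 0.0281), both past the threshold. Ndufaf4 was then at 0.33 (adjusted p = 0.226). In that fit Ndufaf3, Ndufs8 and Sdhb also passed, and the count over all genes went from 2647 to 1596. With the hair follicle score as a covariate 321 of all 12106 genes passed, in place of 2647, and none of the 6 did. The difference was then -0.25 for Ndufv1 and Ndufv2, 0.03 for Cox6a2, -0.24 for Cox8b and -0.16 for Cox7a1. The hair follicle score ran from 0.89 to 1.57 in DMSO sham skin and from -3.20 to -0.54 at 6 h, with no overlap between the groups. The muscle score did not overlap either, from -0.52 to -0.04 in DMSO sham skin and from 0.19 to 0.67 at 6 h. Either covariate therefore stands in part for UV itself, and neither fit can tell a score from UV.

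In AG825 skin the muscle isoforms were already spread before UV. Cox6a2 measured 9.92, 9.39, 10.96 and 9.29 in AG825 sham replicates B, C, D and E, whose muscle scores were -0.01, -0.63, 0.40 and -0.71. At 6 h it measured 11.14, 10.68, 10.88 and 9.61 in replicates A, B, D and E, whose muscle scores were 0.61, 0.51, 0.24 and -0.62. The groups overlapped, and the difference was 0.69 ± 0.32 (adjusted p = 0.319). The UV responses of the 2 drug groups were not shown to differ at 6 h: the interaction was -0.46 ± 0.46 for Cox6a2 (adjusted p = 0.986), -0.50 ± 0.47 for Cox8b (adjusted p = 0.977) and -0.76 ± 0.52 for Cox7a1 (adjusted p = 0.941).

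The nuclear genes of the chain are known to carry sites for NRF1, for GABP (an ETS-family factor) and for YY1 near their start. RefSeq promoter windows of 300 bases (250 before and 50 after the gene start, GRCm38.p6) were found for 53 of the 64 genes, 55 windows in all, and were searched on both strands for GCGCANGCG (NRF1), CCGGAAG (GABP) and AAGATGGC (YY1). At least 1 motif was found in 50.9% of the members' windows, against 24.7% of the 12276 windows of measured genes and 5242 of all 32851 windows. For NRF1 the shares were 23.6%, 10.7% and 6.2%, for GABP 21.8%, 13.9% and 8.9%, and for YY1 10.9%, 3.6% and 2.7%. None of the 3 tissue isoform windows held one, which says only that these letters are not in these windows. A palindromic NRF1 match is found on both strands at adjacent positions and is the same stretch. The windows below show the assembly factor that rose, the core subunit nearest to the threshold whose window holds a match, and the muscle and general forms of subunit VIII, a pair chosen after their values were seen. Capitals mark motif matches, and each is written 5′ to 3′ on the strand of its gene. The Ndufaf4 window is chr4:24897833-24898132 (plus strand), with a palindromic NRF1 match. The Ndufs8 window is chr19:3912725-3913024 (minus strand), with 1 GABP match read on the opposite strand. The Cox8b window is chr7:140900397-140900696 (minus strand), with no match. The Cox8a window is chr19:7217567-7217866 (minus strand), with 2 GABP matches, both read on the opposite strand.
Ndufaf4: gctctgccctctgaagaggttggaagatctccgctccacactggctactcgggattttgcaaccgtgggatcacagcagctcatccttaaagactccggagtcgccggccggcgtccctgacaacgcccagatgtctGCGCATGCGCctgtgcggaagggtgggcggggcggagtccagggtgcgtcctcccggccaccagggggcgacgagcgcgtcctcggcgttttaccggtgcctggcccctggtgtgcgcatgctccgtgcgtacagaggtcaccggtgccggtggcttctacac
Ndufs8: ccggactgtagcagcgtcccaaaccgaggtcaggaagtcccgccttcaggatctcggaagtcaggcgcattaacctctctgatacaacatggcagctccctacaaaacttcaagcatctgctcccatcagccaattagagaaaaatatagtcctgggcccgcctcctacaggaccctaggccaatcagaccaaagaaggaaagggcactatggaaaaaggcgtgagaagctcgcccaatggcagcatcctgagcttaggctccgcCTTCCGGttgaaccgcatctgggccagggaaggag
Cox8b: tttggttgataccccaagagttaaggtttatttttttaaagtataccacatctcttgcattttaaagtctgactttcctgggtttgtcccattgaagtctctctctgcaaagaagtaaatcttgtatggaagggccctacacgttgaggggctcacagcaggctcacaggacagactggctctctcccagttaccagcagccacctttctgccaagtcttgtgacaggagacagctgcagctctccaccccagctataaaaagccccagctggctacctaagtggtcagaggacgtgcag
Cox8a: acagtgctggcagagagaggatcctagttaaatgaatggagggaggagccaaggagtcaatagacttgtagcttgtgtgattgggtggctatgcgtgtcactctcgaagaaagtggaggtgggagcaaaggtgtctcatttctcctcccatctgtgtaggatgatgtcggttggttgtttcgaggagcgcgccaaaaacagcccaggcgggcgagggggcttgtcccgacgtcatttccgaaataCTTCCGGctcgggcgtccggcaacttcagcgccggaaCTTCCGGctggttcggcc
The windows of Ndufv1 and Ndufv2, the subunits that fell, held no match.

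In DMSO skin 24 h after UV no respiratory chain gene passed in limma, where 10.6% of all genes did. Unadjusted p-values were under 0.05 for 5 of 64, against 23.4% of all genes. The median was -0.04, equal to that over all genes. All 6 core subunits of complex I were below sham, from -0.22 to -0.04, in a comparison where 41.0% of all genes were above it. This comparison and that of 6 h share the DMSO sham arrays, so they are not independent. The smallest adjusted p, 0.0827, was that of Ndufs5, an accessory subunit, which measured 10.61, 10.50, 10.28 and 10.29 in sham skin and 9.86, 9.93, 10.04 and 10.25 at 24 h (-0.40 ± 0.14). Its groups did not overlap. Ndufv2 differed by -0.22 ± 0.11 (adjusted p = 0.24), and the muscle isoforms Cox6a2, Cox7a1 and Cox8b by 0.48, 0.39 and 0.33, with adjusted p of 0.482, 0.677 and 0.705. Between 6 h and 24 h in DMSO skin none of the 64 passed in limma (0.0661% of all genes did), and none had an unadjusted p under 0.05 (14.7% of all genes). The lowest differences were those of the same 3 muscle isoforms, -0.69 to -0.67.

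In AG825 skin 6 h after UV none of the 64 passed in limma, against 3.39% of all genes. An unadjusted p under 0.05 was found for 8, against 17.0% of all genes. The median was 0.10, beside 0.02 over all genes and -0.04 over genes present on all arrays. Above sham were 47 of the 64, against 55.0% of all genes and 42.7% of genes present on all arrays. Without AG825 6 h replicate E, which stands low in several classes, the median was 0.15, and without AG825 sham replicate C it was 0.03; none passed in either fit. It was 0.05 without AG825 6 h replicate B or D and 0.06 without replicate A. The smallest adjusted p was 0.153, for the assembly factor Ndufaf3 (-0.28 ± 0.10).

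In AG825 skin 24 h after UV 1 gene passed, and most others lay above sham by a small amount. Ndufb6, an accessory subunit in the membrane arm of complex I, measured 11.09, 10.76, 11.34 and 11.07 in AG825 sham replicates B, C, D and E and 11.51, 11.37 and 11.56 at 24 h in replicates A, B and C. The groups did not overlap, and it rose by 0.41 (adjusted p = 0.0413). Its other probe set rose by 0.59 (adjusted p = 0.0391). Over all genes 5.78% passed, 4.27% higher and 1.51% lower, so 1 of 64 is below the background share. The call was lost with dChip signal (0.20, adjusted p = 0.482), with GCOS signal (0.29, adjusted p = 0.392) and when any 1 of AG825 sham replicates B, C and E or AG825 24 h replicates A, B and C was left out.

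The median of the 64 genes in that comparison was 0.23, beside -0.06 over all genes and 0.07 over genes present on all arrays. Above sham were 60 of the 64, against 41.4% of all genes and 60.2% of genes present on all arrays. In the same comparison 8 of 11 leukocyte genes rose (median 1.48), 2 of 9 suprabasal keratinocyte genes fell (median -1.06), 1 of 17 hair follicle genes fell (median -0.92) and no skeletal muscle gene passed (median 0.29). The part of these shifts was not tested, other than by the covariates: the members' median was 0.16 with the muscle score and 0.17 with the hair follicle score. The class medians were 0.25 for the accessory subunits of complex I, 0.10 for its core subunits, 0.19 for complex II, 0.20 for complex III and 0.18 for the general subunits of complex IV. Cox5b, a general subunit, measured 11.99, 11.66, 12.26 and 12.14 in AG825 sham skin and 12.42, 12.38 and 12.50 at 24 h, a difference of 0.42 ± 0.13 (adjusted p = 0.0592). Sdhd measured 10.64, 10.62, 11.26 and 11.00 in sham skin and 11.17, 11.25 and 11.44 at 24 h, a difference of 0.41 ± 0.14 (adjusted p = 0.0919). In both genes AG825 sham replicate C was the lowest and replicate D the highest of its group. The mean centred value of the 64 genes was -0.28 on sham replicate C and 0.17 on replicate D, while the 3 arrays at 24 h gave 0.13 to 0.16. Without replicate C the median was 0.14 and none passed in limma. Without replicate D it was 0.29, the genes past the threshold over all 12106 went from 700 to 1155, and 7 members passed, Ndufb6, Sdhd, Cox5b, Ndufa1, Cox4i1, Ndufb9 and Cox6b1, with differences of 0.35 to 0.55. With dChip signal the median was 0.10 and none passed.

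From 6 h to 24 h in AG825 skin none of the 64 passed in limma, where 0.306% of all genes did. Before adjustment 17 had a p under 0.05 (14 higher, 3 lower), against 25.6% of all genes. The median was 0.16, beside -0.04 over all genes and 0.13 over the genes present on all arrays, and it was 0.08 without AG825 6 h replicate E. Percent present did not overlap between these groups, from 64.0% to 69.8% at 6 h and from 70.2% to 71.4% at 24 h, and the median was 0.12 with it as a covariate. The smallest adjusted p was 0.0824, for the accessory subunit Ndufa9 (0.43 ± 0.12).

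Comparing the drugs at each time, no respiratory chain gene passed. After sham, 0.0% of all genes passed in limma. At an unadjusted p under 0.05 there were none of the 64 and 1.08% of all genes, and the median was -0.07, with 16 of the 64 genes higher in AG825 skin, against 43.5% of all genes. One array decided the sign of this median, which was 0.01 without AG825 sham replicate C and -0.13 without replicate D. At 6 h, again 0.0% of all genes passed. At an unadjusted p under 0.05 there was 1 of the 64, against 8.61% of all genes. The median was 0.02, and it ran from -0.01 to 0.09 with single arrays left out, highest without AG825 6 h replicate E. That gene, Cox7a2l, which takes part in assembling supercomplexes, was 0.34 ± 0.12 higher with AG825 (adjusted p = 0.506).

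At 24 h after UV the chain lay higher in AG825 than in DMSO skin by a small amount in most genes, without a gene that passed. Over all genes 0.0% passed in limma. Before adjustment 17 of the 64 had a p under 0.05 (16 higher, 1 lower), against 9.53% of all genes, and the smallest adjusted p was 0.46. The median was 0.20, beside -0.01 over all genes, and 60 of the 64 were higher with AG825, against 47.7% of all genes. Among the 6155 genes present on all arrays, the median was 0.11 and 71.6% were higher. Class medians were 0.24 for the core and for the accessory subunits of complex I, 0.18 for complex II, 0.15 for complex III and 0.15 for the general subunits of complex IV. This comparison and UV 24 h against sham in AG825 skin share the 3 AG825 24 h arrays, so they are not independent. The mean centred value of the 64 genes was 0.13 to 0.16 on the AG825 24 h arrays. It was -0.11 to 0.0 on the DMSO 24 h arrays. Genes read on the same arrays are not independent, so counts of genes here and in the other comparisons are not separate results.

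**Figure D4:**
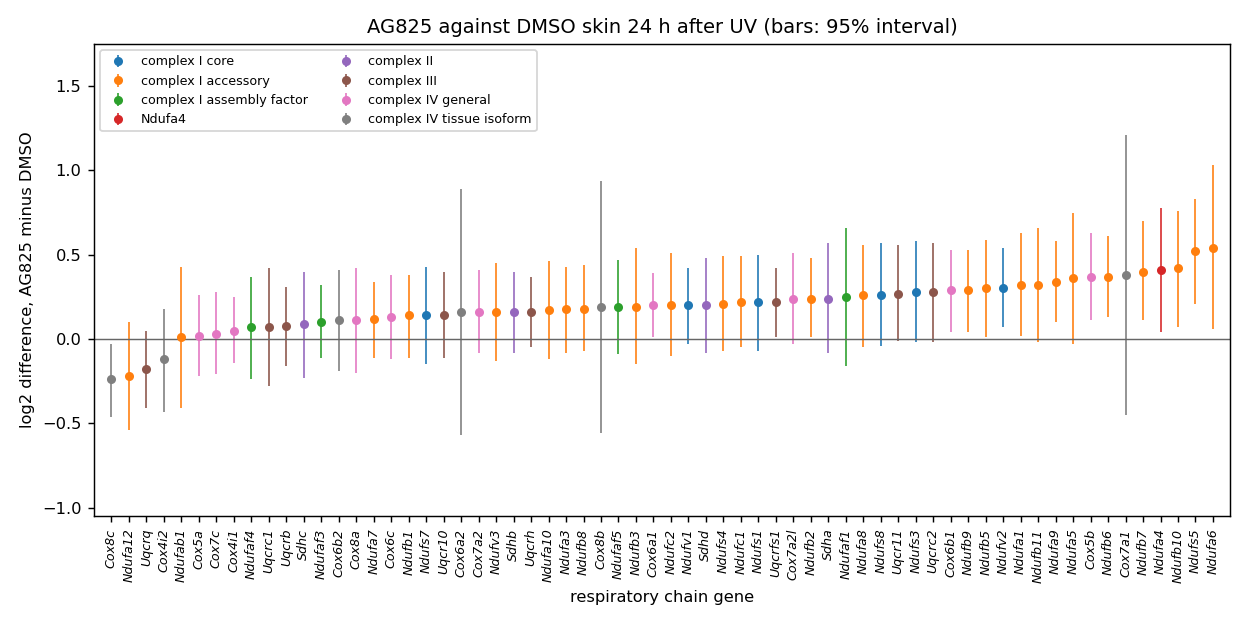
Log2 difference of each of the 64 respiratory chain genes between AG825 and DMSO skin 24 h after UV, with its 95% interval, sorted by size and coloured by class. Points for 60 genes lie above 0, from 0.01 to 0.54, and none passed the test after adjustment (smallest adjusted p = 0.46).

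Single genes show the size of this difference. Ndufs5 measured 9.86, 9.93, 10.04 and 10.25 in DMSO skin at 24 h (replicates A, B, C and E) and 10.57, 10.45 and 10.62 in AG825 skin (replicates A, B and C), a difference of 0.52 ± 0.15 (adjusted p = 0.46). The groups did not overlap. Ndufa6, an accessory subunit, differed by 0.54 ± 0.23, Ndufb10 by 0.42 ± 0.17 and Ndufa4 by 0.41 ± 0.18, each with an adjusted p of 0.46. Ndufv2 measured 11.30, 11.12, 10.97 and 10.85 in DMSO skin and 11.36, 11.50 and 11.23 in AG825 skin, overlapping at 11.23 and 11.30, a difference of 0.30 ± 0.11 (adjusted p = 0.46). The 4 lower genes were Cox8c (-0.24), Ndufa12 (-0.22), Uqcrq (-0.18) and Cox4i2 (-0.12). Of these, Cox8c was called present on 11 arrays, Ndufa12 on 20, Cox4i2 on 22 and Uqcrq on all 23. Ndufa12 was also low in level, with group means from 4.46 to 4.88. Cox4i1 and Cox5a, general subunits of complex IV, were nearly level at 0.05 ± 0.09 and 0.02 ± 0.12. For the 64 genes the 95% intervals lay between -0.57 and 1.21, and 34 of them stayed within 0.5 of 0.

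The drug by UV interaction asks whether the change from sham differed between AG825 and DMSO skin. At 6 h none of the 64 passed in limma (0.0% of all genes). At an unadjusted p under 0.05 there was 1, again Cox7a2l (0.50 ± 0.17, adjusted p = 0.605), against 7.51% of all genes. The median was 0.09, beside 0.02 over all genes. It ran from 0.02 without AG825 sham replicate C to 0.16 without AG825 sham replicate D. At 24 h none of the 64 passed in limma, against 0.00826% of all genes, which is 1 gene. Before adjustment 16 had a p under 0.05, against 5.01%. The median at 24 h was 0.26, 59 genes were positive and the smallest adjusted p was 0.855. Over all genes the median was -0.01 and 49.0% were positive. Over genes present on all arrays the median was 0.10 and 66.4% were positive. The highest were the accessory subunits Ndufa6 (0.80 ± 0.32) and Ndufs5 (0.58 ± 0.20).

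Other mitochondrial gene lists gave the surroundings of the chain, and their counts of lower genes in DMSO skin at 6 h are to be read against the 12.5% of all genes that fell there. In DMSO skin at 6 h, 1 of 15 ATP synthase genes fell (Atp5g2, -0.53 ± 0.18, adjusted p = 0.0424), and the list's median was -0.03. Of 71 mitochondrial ribosome genes 9 fell and none rose, a share near that background, with a median of -0.11, among them Mrpl24 (-0.44 ± 0.10, adjusted p = 0.00472) and Mrps28 (-0.60 ± 0.14, adjusted p = 0.00508). Of 15 citric acid cycle genes 2 fell: Suclg2, a subunit of succinyl-CoA ligase (-0.53 ± 0.16), and Cs, citrate synthase (-0.47 ± 0.15). Cycs, which encodes the somatic cytochrome c, rose by 0.47 ± 0.11 (adjusted p = 0.00442), while Cyc1, the cytochrome c1 of complex III, differed by -0.26 ± 0.10 (adjusted p = 0.0853). Of 13 assembly factors of complexes II to IV, 1 fell, Lrpprc, which stabilises mitochondrial mRNAs (-0.44 ± 0.12, adjusted p = 0.0151). Of 14 regulators of mitochondrial biogenesis, 1 fell, the transcription factor gene Nrf1 (-0.42 ± 0.10, adjusted p = 0.00343), and it also fell at 24 h (-0.44 ± 0.10, adjusted p = 0.00464), where 4.72% of all genes did. Of 5 uncoupling and brown fat genes, 1 rose, Dio2, a deiodinase (0.70 ± 0.19, adjusted p = 0.0151).

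Glycolysis genes that passed in DMSO skin were higher. Of 11 measured, 4 rose in DMSO skin at 6 h, Hk2 (0.50 ± 0.15), Ldha (0.39 ± 0.12), Pgk1 (0.38 ± 0.12) and Pkm (0.38 ± 0.13), and none fell (median 0.30), where 9.34% of all genes rose. At 24 h 3 rose, where 5.89% of all genes did, with Pkm, pyruvate kinase, at 0.69 ± 0.13 (adjusted p = 0.00163), and the median was 0.28. In AG825 skin 1 fell at 6 h, Hk1 (-0.55 ± 0.13, adjusted p = 0.0262), where 1.49% of all genes fell, and 4 rose at 24 h (median 0.47), where 4.27% did, with the glucose transporter Slc2a1 at 1.10 ± 0.23 (adjusted p = 0.00789). Between AG825 and DMSO skin at 24 h no gene of these lists passed in limma. The medians were 0.21 for the mitochondrial ribosome, 0.24 for the citric acid cycle, 0.18 for ATP synthase and 0.11 for glycolysis. They were 0.03 for the assembly factors of complexes II to IV and 0.05 for the regulators of mitochondrial biogenesis. For cytochrome c and c1 the median was 0.14, and for uncoupling and brown fat genes 0.26. Beside these stand -0.01 over all genes and 0.11 over genes present on all arrays.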

How the data were processed

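Expression was measured in 23 whole-skin samples. The log2 table was deposited by the authors and is an RMA summary, as the submitters' processing notes state without a version. Linear signal intensity per probe set, with a detection call, came from dChip (23 arrays) and GCOS (22 arrays), per the file headers, for 22690 probe sets, 64 of them controls; 2981 of the rest are not in the log2 table. The deposited detection call gives the percent of probe sets called present. The signal tables served as alternatives, as log2 with a pseudocount of 16 (1 as a further setting for GCOS). GCOS signal was missing for DMSO 6 h replicate G, so GCOS fits had fewer arrays in that group. Each GCOS array was first rescaled to a mean of 500, with 2% of values trimmed at each end.

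Probe sets were named from the platform annotation: 17825 named 1 gene, 445 several and 1375 none. The 64 genes had 95 probe sets, and 27 genes had more than 1; 4 probe sets matching the rule but naming several genes were left out. A model with 6 group means was fitted by limma 3.58.1 (R 4.3.3; moderated, two-sided tests with 20.75 degrees of freedom) for 11 comparisons, and tested on simulated data. The number of arrays limits the precision. Genes were named in the text by rank of adjusted p and by highest and lowest difference within a comparison, with a set of standard subunits always eligible, and lists by their smallest adjusted p. Members, lists and tests were chosen with earlier results of these data known. Within groups, arrays correlated at 0.9574 to 0.9924. Replicate letters were not used as pairs: over 35 same-letter pairs the correlation of deviations from group means ran from -0.2284 to 0.6719, with a median of 0.1704, and 21 were over 0.1. Over 185 pairs of different letters the median was -0.026, and 62 were over 0.1. By the median, arrays that share a letter were thus more alike, and the reason was not tested. Alternatives covered the expression summary, a present-call filter, a replicate block, only the groups compared, the mean of a gene's probe sets, percent present, muscle and hair follicle scores as covariates, and each array left out.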

Additional observations from a re-analysis of the deposited data

Results flagged for a closer look

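Within groups of 4 arrays, 14 of 140 tested groups over 28 quantities held a value far from the other 3, where chance gives about 1 in 20. AG825 6 h replicate E accounts for 5 of them. There Cox7a1 was 6.51 (others 8.10 to 8.33), Cox8b 8.71 (10.04 to 10.19) and Cox5b 11.83 (12.19 to 12.25), and the mean centred score was -0.24 for complex I accessory subunits (0.08 to 0.11) and -0.12 for complex III (0.05 to 0.09). The skeletal muscle score of that array was -0.62, with the others of its group between 0.24 and 0.61; its part in these values was not tested.

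DMSO sham replicate A was highest of its group in Cox6a2, at 10.28 (others 9.58 to 9.70), in Ndufs1, at 10.37 (10.05 to 10.06), and in the tissue isoform score, at 0.02 (-0.30 to -0.26). The complex I assembly factor score of AG825 sham replicate D was 0.26 (others -0.11 to -0.08). Low values were Ndufv2 in DMSO sham replicate D, 11.20 (others 11.31 to 11.32), Uqcrc1 in DMSO sham replicate C, 11.02 (11.27 to 11.31), Cox5b in DMSO 24 h replicate B, 11.93 (12.09 to 12.11), Cox6a1 in DMSO 24 h replicate E, 12.68 (12.97 to 13.02), and Uqcrfs1 in DMSO 24 h replicate C, 11.03 (11.15 to 11.16).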

How the results depend on the processing

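Each count was recomputed under 34 alternatives, 23 of which leave out 1 array. The 6 genes past the threshold in DMSO skin at 6 h became 1 with GCOS signal at either pseudocount, 2 with the replicate block, 3 with the mean of a gene's probe sets, 1 with percent present as a covariate, and 0 without the 3 arrays of lowest percent present or with the hair follicle score. GCOS signal lacks DMSO 6 h replicate G, so its fits differ in the arrays as well as in the expression summary. The gene kept with GCOS signal and with percent present was Ndufaf4, and those kept with the mean of probe sets were Cox6a2, Cox7a1 and Cox8b. Smaller moves in number also changed which genes passed: 4 passed with dChip signal, 3 of them among the 6, 4 with only the groups compared, all among the 6, and 5 with the muscle score, 2 of them among the 6. With the present-call filter the same 6 passed. With single arrays left out they ran from 2 (without DMSO sham replicate B or DMSO 6 h replicate F) to 6, with 3 without DMSO sham replicate D or DMSO 6 h replicate E. The median there was 0.11 with dChip signal, -0.19 with the muscle score and -0.18 with the hair follicle score. Cox7a1 (-0.16) and Cox8b (-0.24) changed sign with the hair follicle score. In DMSO skin at 24 h the count of 0 became 1 with dChip signal, with the hair follicle score, or without DMSO 6 h replicate C, so that leaving out arrays gave 0 to 1. In AG825 skin at 24 h the count of 1 became 0 with dChip signal, GCOS signal at either pseudocount, only the groups compared, percent present or the muscle score, and 2 with the replicate block (without Ndufb6) or the mean of probe sets. Leaving out arrays gave 0 to 7, with 7 without AG825 sham replicate D, 2 without DMSO sham replicate A or AG825 6 h replicate E, and 0 without DMSO sham replicate C, DMSO 6 h replicate G, DMSO 24 h replicate B, AG825 sham replicates B, C or E, or any AG825 24 h array. With the hair follicle score 1 other gene passed, Cox6a1. The median was 0.10 with dChip signal. From 6 h to 24 h the DMSO median was 0.08 with the muscle score. In AG825 skin that comparison had 1 gene past the threshold with the muscle score and a median of 0.04 with GCOS signal at either pseudocount. The AG825 against DMSO sham median was 0.04 with dChip signal. The interaction median was -0.04 (dChip signal), -0.03 (replicate block) and 0.20 (hair follicle score) at 6 h and 0.08 (dChip signal) at 24 h. The AG825 against DMSO median at 24 h stayed positive under its 18 alternatives, from 0.09 to 0.22. The cause of these changes was not tested. Signal over background limits Ndufb1, Cox8c and other genes not present on all arrays.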
